A study of Mus musculus with 36 samples.

Results

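A set of genes around lipoprotein lipase was followed in mouse fat: *Lpl*, *Gpihbp1*, *Lmf1*, *Vldlr*, *Angptl4*, *Angptl8* and *Angptl2*. They were found as the non-control probes that carry one of these names or an older synonym, which gave 12 probes for 7 genes out of 41174 probes on the array. All 12 probes passed the signal filter, a Cy5 spot well above its background in 9 or more mice of at least 1 group, as did probes of 16497 genes in all. The set was chosen with the difference between HF-DR and HF-AL in view, in particular that *Angptl4* and *Angptl8* move in opposite directions. For these 7 genes the differences of HF-DR from the other groups are therefore described, with errors and intervals and no p-value. They are also counted by the rule used for all genes, and correlations within HF-DR were tested.

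The tissue was epididymal white adipose tissue of adult male C57BL/6J mice, 36 in all. HF-DR mice (12) first ate a purified high-fat diet, with 30% of its energy as fat, freely for 3 weeks and were then kept for 12 weeks on a limited amount, given as 70 energy percent, that was enriched in vitamins and minerals to match the intake of the other mice. HF-AL mice (12) ate the diet freely for the same 3 weeks and a further 12 weeks. The t=0 mice (12) were killed at the end of the first 3 weeks. HF-AL mice therefore differ from t=0 mice in time and age as well as in feeding history, and no mice on a low-fat diet were analysed here. RNA of each mouse, labelled with Cy5, was hybridised to 1 Agilent array against a Cy3 pool of all samples, so each level below is a log2 ratio of 1 mouse to that pool, and a difference of 1 is a doubling.

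Lipoprotein lipase, made from *Lpl* in adipocytes, splits the triglyceride of circulating lipoproteins so that fat cells can take up the fatty acids. It is folded with the help of *Lmf1*, carried across the capillary wall by *Gpihbp1*, a protein of endothelial cells, and works beside *Vldlr*, a receptor that binds triglyceride-rich lipoproteins. The angiopoietin-like proteins regulate it after it is made: *Angptl4* inactivates the enzyme in fat and is known as a gene induced by fasting, while *Angptl8* is known as a gene induced by feeding and acts together with other members of the family. *Angptl2* belongs to the same family and is known for its part in inflammation of fat rather than for inhibiting the lipase.

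The promoters of *Angptl8* and *Vldlr* are shown because these are the members with separated groups whose promoter was at hand. The mouse RefSeq promoter table (GRCm38.p6) held 4 of the 7 members, and each window runs from 250 bases before to 50 after a transcript's start. Capitals mark matches, on either strand, to 8 searched motifs. These were the E-box CACGTG, the CCAAT box, the TATA box with the letters TATAAA, the GC box with the letters GGGCGG, the perfect direct repeats bound by PPAR and by LXR receptors, the C/EBP motif TTGCNNAA, and a nuclear receptor half-site core with the letters GGTCA, which lies within both direct repeats. The last 2 motifs were added after the *Angptl8* window had been read.
Angptl8, chr9:21835260-21835559, plus strand: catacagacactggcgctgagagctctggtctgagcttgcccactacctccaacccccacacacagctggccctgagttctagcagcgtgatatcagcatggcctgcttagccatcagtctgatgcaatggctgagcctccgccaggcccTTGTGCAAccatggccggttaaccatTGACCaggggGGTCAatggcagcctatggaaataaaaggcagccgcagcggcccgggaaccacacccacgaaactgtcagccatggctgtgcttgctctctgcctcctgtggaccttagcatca
Vldlr, chr19:27216234-27216533, plus strand: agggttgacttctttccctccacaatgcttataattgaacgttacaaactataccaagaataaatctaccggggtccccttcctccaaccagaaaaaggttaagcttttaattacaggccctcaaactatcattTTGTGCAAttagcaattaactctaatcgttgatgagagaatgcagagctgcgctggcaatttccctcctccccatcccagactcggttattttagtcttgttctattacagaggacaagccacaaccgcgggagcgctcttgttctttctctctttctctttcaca
Both windows hold 1 match to the C/EBP motif, with the same letters TTGTGCAA, and *Angptl8* also holds 2 half-site cores in opposite orientation. Of 32851 promoter windows, 10.8% held the C/EBP motif and 40.5% the half-site core. A second start of *Vldlr* had 1 CCAAT box and 1 GC box and no C/EBP match, and the windows of *Lmf1* and *Angptl2* held 2 GC boxes each. The CCAAT box was present in 37.4% and the GC box in 35.7% of all windows. The E-box (7.15% of all windows), the TATA box (13.6%) and the direct repeats bound by PPAR (0.0396%) and LXR (0.0152%) had no match in the windows of these 4 genes. These matches describe the letters in the windows and are not binding sites shown by these data.

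The arrays differed in brightness, with a median Cy5 signal between 101.9 and 372 and between 44.64% and 86.34% of probes well above background. The number of arrays limits the precision. The labels state the dyes and that the pool holds all samples, so the direction of each ratio is settled although the lowest correlation between an HF-DR array and an array of another group was -0.442. Earlier results of these data singled out 7 arrays for transcripts of the male tract (HF-DR 7, 8 and 9, HF-AL 5, 7 and 9 and t=0 6), called tract arrays below. The mean over 8 tract markers was -0.35, 3.45 and 3.21 on these HF-DR arrays in that order, against a median of -3.51 in HF-DR, while HF-AL 5 and 9, at -3.05 and -3.09, did not stand apart on these markers. The mean over 10 adipocyte markers was -1.20 and -1.06 on HF-DR 8 and 9, against a median of -0.09 in that group. The differences of the 7 genes between HF-DR and HF-AL and the marker lists of adipocytes and other cells are therefore also given without all 7. Between HF-DR and HF-AL, 64.8% of all genes passed the test, a limma fit with an adjusted p under 0.05 (Benjamini-Hochberg), 28.8% higher and 35.9% lower in HF-DR. Between HF-AL and t=0 the share was 0.685%, and between HF-DR and t=0 it was 61.8%.

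*Angptl4* was lower and *Angptl8* higher in every HF-DR mouse measured than in any mouse of the other groups. The probe of *Angptl4* lies on chromosome 17 (mm8, 33381874 to 33381815, reverse strand). Its log2 ratio had a lowest value of -2.83, a median of -2.13 and a highest value of -1.78 in HF-DR mice, against -0.32, 0.46 and 0.88 in HF-AL mice and 0.24, 0.90 and 1.09 in t=0 mice. The HF-DR values form a band of their own, while those of HF-AL and t=0 overlap. The means were -2.20 ± 0.30 in HF-DR, 0.39 ± 0.43 in HF-AL and 0.78 ± 0.28 in t=0 (SD, n = 12 each). The difference between HF-DR and HF-AL was -2.59 with a standard error of 0.14, a 6.02-fold lower level, and the difference between HF-DR and t=0 was -2.98, a 7.87-fold lower level. By size, *Angptl4* ranked 51 among all 16497 genes in the first of these comparisons and 32 in the second, as a description of a gene chosen for this difference.

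*Angptl8*, named EG624219 in the files, had 2 probes on chromosome 9 (mm8), one at 21587497 to 21587556 and a dimmer one whose listed interval, 21586451 to 21587275, spans 825 bases. On the first probe HF-DR mice had a lowest value of 1.23, a median of 1.90 and a highest value of 2.05, in 11 mice because the spot on array HF-DR 8 was marked as an outlier. The same values were -1.91, -1.57 and -0.99 in HF-AL mice and -2.10, -1.84 and -1.57 in t=0 mice. No HF-DR mouse came near the other groups, and those of HF-AL and t=0 overlapped. The mean was 1.79 ± 0.25 in HF-DR (SD, n = 11), against -1.51 ± 0.28 in HF-AL and -1.82 ± 0.16 in t=0 (SD, n = 12 each). HF-DR minus HF-AL was 3.31 with a standard error of 0.10, a 9.88-fold higher level, and ranked 13 by size among all genes. The second probe, measured in all 12 HF-DR mice, gave a difference of 3.23. Against t=0 the first probe differed by 3.62 (12.3-fold) and the second by 3.38.

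The order of both inhibitors relative to the pool was opposite in HF-DR mice. Within each mouse, the log2 ratio of *Angptl8* minus that of *Angptl4* had a lowest value of 3.69, a median of 3.91 and a highest value of 4.10 in HF-DR, against -2.68, -1.90 and -0.67 in HF-AL and -3.07, -2.67 and -1.88 in t=0. Since each value is relative to the pool, this gives the shift between groups and not which of both RNAs was the more abundant. On the 3 slides that held arrays of both groups, HF-DR minus HF-AL lay between -2.93 and -2.32 for *Angptl4* and between 3.46 and 3.52 for the first probe of *Angptl8*. Without the 7 tract arrays the differences were -2.60 and 3.29. Over 13 other ways of processing, some of which leave a ratio unchanged by design, the difference lay between -2.60 and -2.29 for *Angptl4*. It lay between 3.16 and 3.51 for *Angptl8*.

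**Figure D1:**
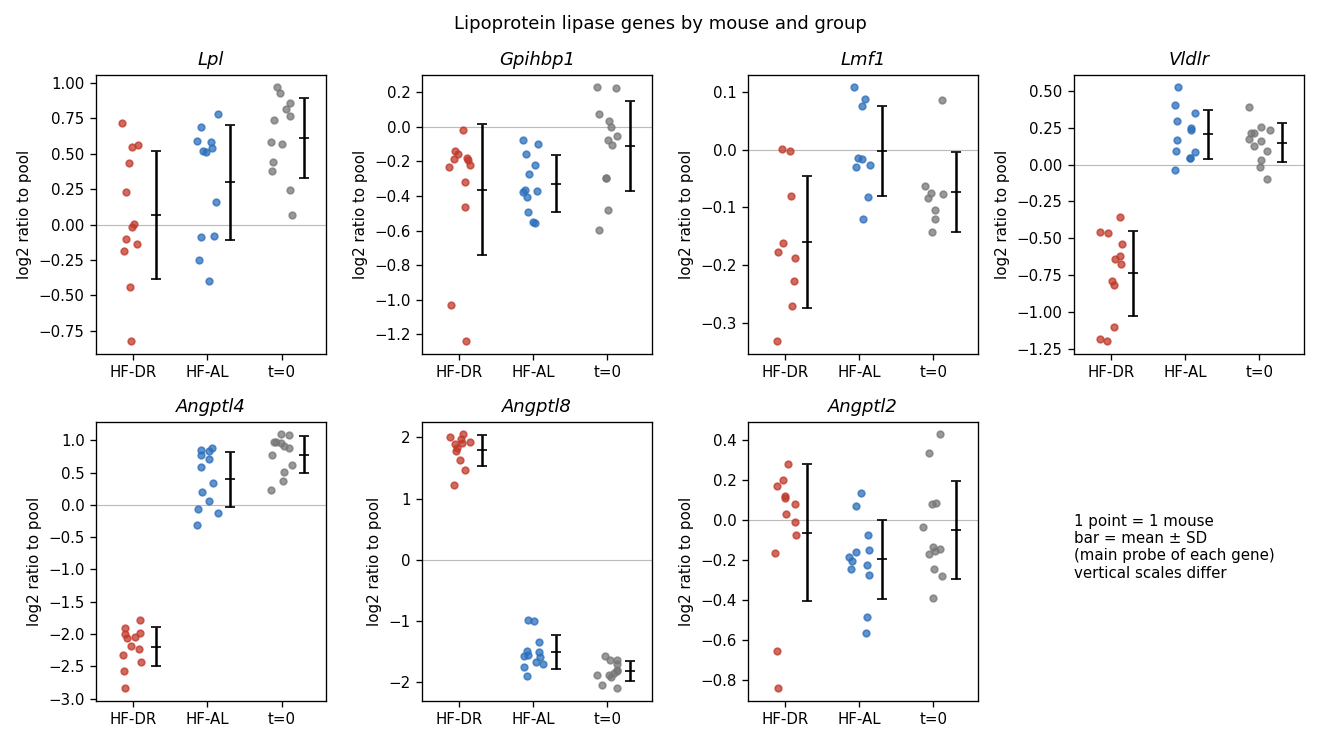
Log2 ratio to the pool (vertical axis, with a scale of its own in each panel) of the main probe of 7 genes in HF-DR, HF-AL and t=0 mice. Each point is 1 mouse and each bar the mean ± SD; HF-DR mice stand apart below for Angptl4 and Vldlr and above for Angptl8, and overlap with HF-AL mice for the other 4 genes.

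*Vldlr* was the third member whose groups did not overlap. Its main probe lies on chromosome 19 (mm8, 27316649 to 27316708). The log2 ratio had a lowest value of -1.20, a median of -0.66 and a highest value of -0.36 in HF-DR mice, against -0.03, 0.20 and 0.52 in HF-AL mice and -0.09, 0.17 and 0.39 in t=0 mice. All 12 HF-DR mice lay below all mice of both other groups, which overlapped each other. The means were -0.74 ± 0.29 in HF-DR, 0.21 ± 0.17 in HF-AL and 0.15 ± 0.13 in t=0 (SD, n = 12 each). HF-DR minus HF-AL was -0.94 with a standard error of 0.08, a 1.92-fold lower level, and -0.89 against t=0. A second probe (27320976 to 27321035) also had no overlap and gave -0.74 and -0.70. Without the tract arrays the difference of the main probe from HF-AL was -0.89.

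*Lpl* itself overlapped between all 3 groups and varied widely among HF-DR mice. Its main probe lies on chromosome 8 (mm8, 71835357 to 71835416). The lowest, median and highest log2 ratios were -0.82, -0.00 and 0.72 in HF-DR mice, -0.40, 0.52 and 0.78 in HF-AL mice and 0.06, 0.66 and 0.97 in t=0 mice. The medians rise in the order HF-DR, HF-AL, t=0, and neighbours in that order overlap. The means were 0.07 ± 0.45 in HF-DR, 0.30 ± 0.40 in HF-AL and 0.61 ± 0.28 in t=0 (SD, n = 12 each). The difference between HF-DR and HF-AL was -0.23, with a 95% interval of -0.54 to 0.08, and that between HF-DR and t=0 was -0.55, with an interval of -0.85 to -0.24. A second probe (71830140 to 71830199) gave -0.32, with an interval of -0.58 to -0.07, and -0.50, with an interval of -0.76 to -0.25. The first of these was -0.26 without the tract arrays and 0.0071 with the authors' deposited value table. The lowest HF-DR value, on array HF-DR 9, came from a tract array. Without the 7 tract arrays the mean was 0.24 ± 0.34 in HF-DR (SD, n = 9) and 0.38 ± 0.40 in HF-AL (SD, n = 9), and the fitted differences were -0.14 from HF-AL and -0.35 from t=0. Over 13 other ways of processing, the difference from HF-AL of the main probe ran from -0.28 to 0.14. Both probes were lower in HF-DR than in HF-AL in the main processing, and the direction of *Lpl* depended on the processing.

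*Gpihbp1*, the endothelial anchor of the lipase, has 1 probe, on chromosome 15 (mm8, 75425309 to 75425368). Its lowest, median and highest log2 ratios were -1.24, -0.21 and -0.02 in HF-DR mice, -0.56, -0.37 and -0.08 in HF-AL mice and -0.60, -0.07 and 0.23 in t=0 mice. The groups overlapped, and only HF-DR 8 and 9, at -1.24 and -1.03, lay below the HF-AL range. The difference between HF-DR and HF-AL was -0.04, with a 95% interval of -0.26 to 0.19, and between HF-DR and t=0 it was -0.25, with an interval of -0.48 to -0.03. Without the tract arrays these became 0.06 and -0.10. The mean over 12 endothelial markers moved with these arrays: it was -1.10 and -0.96 on HF-DR 8 and 9, with a median of -0.26 in HF-DR, -0.09 in HF-AL and 0.00 in t=0. Fewer endothelial cells and less RNA per cell cannot be told apart in whole tissue, and the part of either in these values was not tested.

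*Lmf1*, the lipase's folding factor in the endoplasmic reticulum, is named Tmem112 in the files and has 1 probe on chromosome 17 (mm8, 25390269 to 25390328). After outlier spots were left out it was measured in 9 HF-DR, 9 HF-AL and 8 t=0 mice. The lowest, median and highest log2 ratios were -0.33, -0.18 and 0.00 in HF-DR, -0.12, -0.02 and 0.11 in HF-AL and -0.14, -0.08 and 0.09 in t=0. The groups overlapped, although 6 of the 9 HF-DR mice lay below all HF-AL mice. HF-DR minus HF-AL was -0.16 with a standard error of 0.05, and between HF-DR and t=0 it was -0.09 with a standard error of 0.05. With the authors' deposited value table in place of the scanner signals, the first of these was -0.01, and without the tract arrays it was -0.21.

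*Angptl2* gave no single direction, since its 3 probes on chromosome 2 (mm8) disagreed. On the brightest probe (33065742 to 33065801) the lowest, median and highest log2 ratios were -0.84, 0.06 and 0.28 in HF-DR mice, -0.57, -0.20 and 0.13 in HF-AL mice and -0.39, -0.14 and 0.43 in t=0 mice. The groups overlapped, and HF-DR 8 and 9 again held the lowest values. The difference between HF-DR and HF-AL was 0.13 with a standard error of 0.11 on this probe and 0.02 on the second (33068591 to 33068648). These were 0.27 and 0.13 without the tract arrays, with means on the brightest probe of 0.09 ± 0.13 in HF-DR and -0.18 ± 0.16 in HF-AL (SD, n = 9 each). On the third probe (33052000 to 33052059), designed on another transcript, it was -0.50 with a standard error of 0.09, and -0.44 without the tract arrays. That probe was well above background on 10 of the 12 HF-DR arrays, and on all 12 in HF-AL and t=0. All 3 probes were dim.

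**Figure D2:**
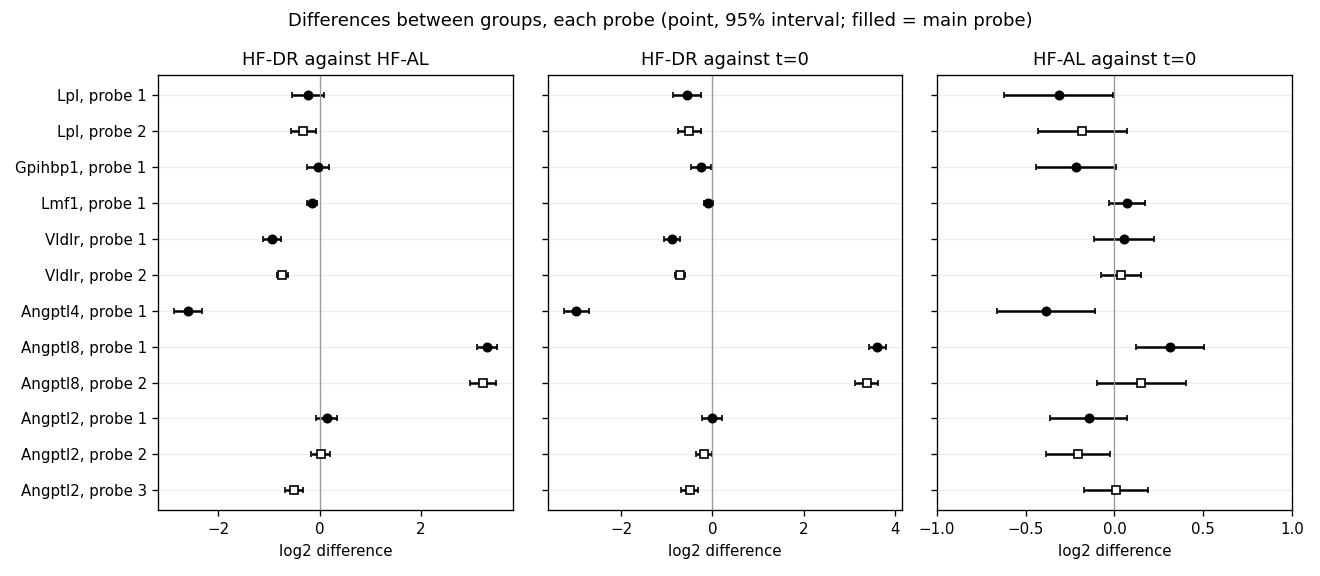
Log2 difference between groups (horizontal axis, drawn wider in the right panel) for all 12 probes, with 95% intervals from the fit; filled points are the main probe of each gene. Both Angptl8 probes lie at 3.23 to 3.31 and Angptl4 at -2.59 in HF-DR against HF-AL, both Vldlr probes lie below 0, and the 3 Angptl2 probes fall on both sides of 0.

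Counted by the same rule as the whole array, 1 of the 7 genes was higher and 3 were lower in HF-DR than in HF-AL, where the background is 64.8%. The groups did not overlap for 1 higher and 2 lower genes, where the background is 14.4% (6.23% higher and 8.19% lower). Against t=0, 1 was higher and 4 were lower in HF-DR, with 61.8% as background (28.8% higher and 33% lower). The same 3 genes had no overlap there, with 16.6% as background (7.5% higher and 9.12% lower). The genes were chosen on this difference, so nothing is read from these counts. Both comparisons use the same HF-DR mice.

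The comparison of HF-AL with t=0 was tested, although the HF-AL mice are also part of the difference on which the genes were chosen. Earlier results of these data were known at that choice, so its p-values do not come from genes picked without sight of them. The comparison sets a further 12 weeks of free feeding against the start. None of the 7 genes passed the test in limma at an adjusted p under 0.05, where 0.685% of all genes did. At an unadjusted p under 0.05, 3 of the 7 did (*Angptl4*, *Angptl8* and *Lpl*), as did 2223 of the 16497 genes, or 13.5%. *Angptl4* was at 0.39 in HF-AL and 0.78 in t=0, a difference of -0.39 with a standard error of 0.14 and an adjusted p of 0.179, and was lower in HF-AL on 7 of the 9 slides that held both groups. *Angptl8* was at -1.51 in HF-AL and -1.82 in t=0, a difference of 0.31 with a standard error of 0.09 and an adjusted p of 0.107. Its value was higher in HF-AL on 9 of 9 shared slides, by 0.07 to 0.72.

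Not all of 13 alternatives could move that difference of *Angptl8*. With brightness matched between arrays, or with saturated spots left out, it stayed at 0.31. It was close to the threshold and passed it under 3 of the 13. It was 0.38 (adjusted p = 0.0375) without the tract arrays, 0.33 (adjusted p = 0.0418) with the slide as a block and 0.42 (adjusted p = 0.0446) when spots with a net signal under -50, called specks, were kept. Its second probe differed by 0.15, with a 95% interval of -0.10 to 0.40, and was higher on 8 of 9 slides. HF-AL and HF-DR were set against the same t=0 mice. Of the rest, *Lpl* differed by -0.32 (adjusted p = 0.358), *Gpihbp1* by -0.22 (adjusted p = 0.390), *Angptl2* by -0.15 (adjusted p = 0.584), *Lmf1* by 0.07 (adjusted p = 0.565) and *Vldlr* by 0.06 (adjusted p = 0.830). The 95% interval was -0.11 to 0.22 for *Vldlr*, -0.03 to 0.17 for *Lmf1* and -0.62 to -0.01 for *Lpl*.

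Within groups, 3 pairs of members were compared mouse by mouse, 9 correlations in all, with permutation tests. In HF-DR, *Angptl4* and *Angptl8* varied together although their group means lie on opposite sides: Pearson's r was 0.84 (permutation p = 0.00104, adjusted p = 0.00936) and Spearman's rho 0.818 (permutation p = 0.00339, adjusted p = 0.0184), over 11 mice. In HF-AL r was -0.268 (permutation p = 0.397, adjusted p = 0.447) and rho -0.231 (permutation p = 0.469, adjusted p = 0.527), and in t=0 r was -0.301 (permutation p = 0.341, adjusted p = 0.446) and rho -0.315 (permutation p = 0.320, adjusted p = 0.513). Without the 2 mice farthest from the median of *Angptl4*, HF-DR 8 and 9, r in HF-DR was 0.729 (adjusted permutation p = 0.134) and rho 0.758 (adjusted permutation p = 0.133), over 10 mice. HF-DR 8 had no value of *Angptl8* and was not among the 11 mice before, so only HF-DR 9 was removed. Without the tract arrays, r was 0.76 (adjusted permutation p = 0.0729) and rho 0.867 (adjusted permutation p = 0.0373). With the slide's mean removed, r was 0.75 (adjusted permutation p = 0.788) and rho 0.371 (adjusted permutation p = 0.892), over 6 arrays. The 12 HF-DR arrays were on 12 slides, so this mean came from mice of different groups and cannot show how the pair varied within slides. By Pearson's r the pair passed in none of these 3 alternatives, and by Spearman's rho it passed without the tract arrays.

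*Lpl* and *Gpihbp1* correlated in HF-AL, with r = 0.785 (permutation p = 0.00329, adjusted p = 0.0148) and rho = 0.776 (permutation p = 0.00410, adjusted p = 0.0184). In HF-DR r was 0.664 (permutation p = 0.0159, adjusted p = 0.0477) and rho 0.315 (permutation p = 0.320, adjusted p = 0.513), and this rested on HF-DR 8 and 9, since r was 0.015 without the tract arrays. In t=0 r was 0.206 (permutation p = 0.520, adjusted p = 0.520) and rho 0.203 (permutation p = 0.528, adjusted p = 0.528). The HF-AL value fell to 0.687 (adjusted permutation p = 0.134) without the 2 mice farthest from the median of *Lpl*. With the slide's mean removed it was 0.047 (adjusted permutation p = 0.901), over 9 arrays. The 12 HF-AL arrays were on 12 slides, so that mean came from mice of different groups. It cannot show whether the pair varied together within slides. *Lpl* with *Angptl4* passed in no group. In HF-DR r was 0.532 (permutation p = 0.0767, adjusted p = 0.173) and rho 0.448 (permutation p = 0.149, adjusted p = 0.447). In HF-AL r was 0.312 (permutation p = 0.318, adjusted p = 0.446) and rho 0.301 (permutation p = 0.342, adjusted p = 0.513), and in t=0 r was -0.298 (permutation p = 0.347, adjusted p = 0.446) and rho -0.266 (permutation p = 0.404, adjusted p = 0.519).

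**Figure D3:**
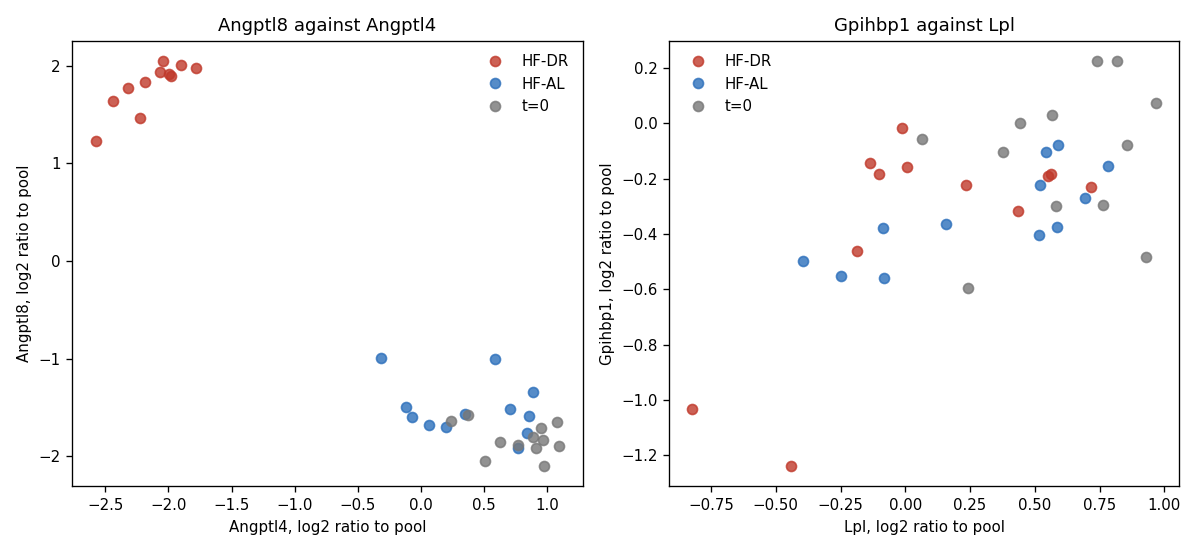
Left, Angptl8 against Angptl4, and right, Gpihbp1 against Lpl, both as log2 ratio to the pool with 1 point per mouse and the groups in colour. HF-DR mice form a separate cloud at low Angptl4 and high Angptl8, and on the right 2 HF-DR mice lie at the lower left, below -1.0 for Gpihbp1.

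The genes most like each of 3 members over all arrays were listed, as a description that holds the group difference within it. *Angptl8* was closest to *Elovl6*, the elongase of long-chain fatty acids (r = 0.992), *Ppp1r3b*, a glycogen-targeting subunit of protein phosphatase (0.991) and *Mtfp1* (0.988), over 35 arrays. *Angptl4* was closest to *Rarres2*, which encodes the adipokine chemerin (0.974), *Lrrc61* and *Tmem140* (0.966 each), over 36 arrays. *Lpl* was closest to *Hebp1* (0.862), *Vegfd* (0.830) and *Ipo11* (0.829). With group means removed, the leading gene was *Ppp1r3d* for *Angptl8* (0.787), *Fth1*, the heavy chain of ferritin, for *Angptl4* (0.735) and *Ipo11* for *Lpl* (0.815). Not all of the 5 closest are given here.

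The genes around the lipase were described by lists. The background for each count of genes that rose or fell in HF-DR against HF-AL is 28.8% of all genes higher and 35.9% lower. Without the tract arrays, 5075 of the 16497 genes were higher and 5942 lower. With the slide as a block, 3957 were higher and 4745 lower. Of 11 measured genes of lipase folding and cleavage, 3 rose and 3 fell in HF-DR against HF-AL. *Furin*, a protease that cuts the lipase and several angiopoietin-like proteins, rose by 0.44 (adjusted p = 2.7e-06). The related proteases *Pcsk6* (-0.94, adjusted p = 7.8e-08) and *Pcsk5* (-0.80, adjusted p = 3.0e-11) fell, as did *Syvn1*, a ligase that works with *Sel1l* in the degradation of misfolded proteins (-0.71, adjusted p = 3.0e-07). Without the tract arrays 5 fell. The list's median difference was -0.03, against -0.04 over all genes.

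Of 13 genes for trafficking and matrix anchoring, 1 rose and 9 fell, with a median of -0.35. *Sorl1*, a sorting receptor that binds the lipase, rose by 2.41 (adjusted p = 7.3e-21) and had no overlap between HF-DR and HF-AL. *Gpc1*, a heparan sulphate proteoglycan of the cell surface, fell by 1.12 on the log2 scale (adjusted p = 1.9e-11), and *Hs6st1*, which adds sulphate to heparan chains, fell by 0.76 (adjusted p = 4.5e-11). Without the tract arrays 2 rose.

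Of 8 apolipoprotein and lipid transfer genes, 3 rose and 3 fell. *Apoc2*, the cofactor of the lipase, was at 1.02 in HF-DR and -0.31 in HF-AL, a rise of 1.33 (adjusted p = 1.2e-13), and *Apoc3*, an inhibitor of it, rose by 1.44 (adjusted p = 6.7e-09) on a dimmer probe. *Apoe*, the ligand of lipoprotein receptors, was at -1.70 in HF-DR and 0.43 in HF-AL, a difference of -2.13 (adjusted p = 6.5e-21). With the authors' deposited value table in place of the scanner signals, 1 gene of this list fell.

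Of 5 other angiopoietin-like and angiopoietin genes, 2 rose: *Angptl6* by 0.40 (adjusted p = 3.2e-08) and *Angptl1* by 0.33 (adjusted p = 0.0032), which did not pass with the specks kept (0.18, adjusted p = 0.0514). *Angpt1*, a vessel ligand, differed by 0.08 (adjusted p = 0.447).

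Of 7 related lipases and their cofactors, 3 rose and 3 fell. *Abhd5*, the activator of adipose triglyceride lipase, rose by 1.54 (adjusted p = 1.6e-12). *Lipg*, endothelial lipase, rose by 1.28 (adjusted p = 1.6e-12), on a probe dimmer than those of *Angptl2*. *Lipe*, hormone-sensitive lipase, fell by 0.63 (adjusted p = 2.8e-05). Of 10 lipoprotein receptor genes besides *Vldlr*, 6 rose and 3 fell: *Lrpap1*, the chaperone of these receptors, rose by 1.08 (adjusted p = 7.5e-14), *Lrp6* by 1.02 (adjusted p = 4.1e-09), and *Lrp1*, a large endocytic receptor, fell by 0.89 (adjusted p = 8.9e-10). Of 12 genes of fatty acid uptake and binding, 8 rose and 2 fell, with a median of 0.36. *Fabp5*, a fatty acid binding protein, rose by 1.97 (adjusted p = 1.6e-13), *Slc27a1*, a fatty acid transporter, by 1.87 (adjusted p = 4.4e-13) and *Dgat1*, which completes triglyceride, by 1.33 (adjusted p = 1.9e-13). *Cd36*, the fatty acid translocase, fell by 0.61 (adjusted p = 9.8e-06). Under 4 alternatives, the deposited table and the fit without tract arrays among them, 1 gene of this list fell.

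*Angptl4* is known as a target of PPAR, glucocorticoids and hypoxia, and *Angptl8* as a target of insulin, so lists of such targets were set beside them. Of 14 insulin and lipogenic targets, 13 rose and none fell, with a median difference of 2.37. *Elovl6* rose by 5.20 (adjusted p = 8.7e-26), *Acly*, which makes acetyl-CoA for lipid synthesis, by 3.31 (adjusted p = 2.8e-18) and *Me1*, which supplies NADPH, by 2.95 (adjusted p = 3.9e-18). Of 16 PPAR and fasting targets, 11 rose and 3 fell, with a median of 0.91. *Fgf21*, a hormone induced by fasting in liver, rose by 2.84 (adjusted p = 2.2e-17). *Plin4*, a lipid droplet coat protein, fell by 2.11 (adjusted p = 3.8e-15), and *Cpt1a*, which admits fatty acids to mitochondria, fell by 0.80 (adjusted p = 2.0e-16).

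Of 9 glucocorticoid targets, 2 rose and 2 fell, with a median of -0.11. *Hsd11b1*, which regenerates active glucocorticoid, rose by 1.86 (adjusted p = 1.3e-14), and the metallothionein *Mt2* fell by 1.95 (adjusted p = 3.8e-13). *Mt1* fell by 0.53 (adjusted p = 2.7e-07), but was higher in HF-DR, by 0.28, in the authors' deposited value table. Of 10 hypoxia targets, 3 rose and 3 fell. *Pdk1* rose by 2.78 (adjusted p = 1.4e-21), *Egln3* by 2.72 (adjusted p = 3.2e-20) and *Hk2* by 1.14 (adjusted p = 8.2e-11), while *Ndrg1* fell by 1.20 (adjusted p = 1.1e-10). Of 10 transcription regulators, 3 rose and 5 fell. *Nr3c1*, the glucocorticoid receptor, fell by 0.70 (adjusted p = 2.0e-09) and *Foxo1*, a factor restrained by insulin, by 0.79 (adjusted p = 2.0e-09), while *Hif1a* rose by 0.49 (adjusted p = 6.1e-09).

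**Figure D4:**
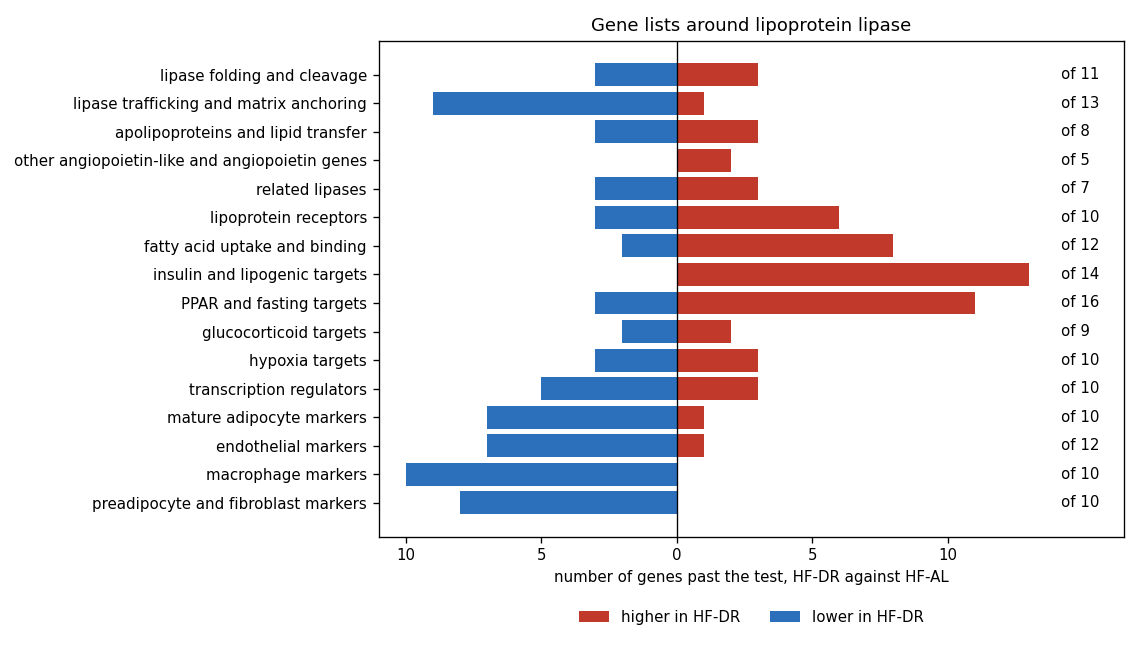
Number of genes of each list (rows) that were higher (right, red) or lower (left, blue) in HF-DR than in HF-AL at an adjusted p under 0.05, with the number measured at the right edge. The list of insulin and lipogenic targets has 13 of 14 on the right, trafficking and matrix anchoring 9 of 13 on the left, and macrophage markers 10 of 10 on the left.

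Markers of the cells that make these proteins also moved. Of 10 adipocyte markers, all of which passed the signal filter, 1 rose and 7 fell, among them *Plin1*, the main coat protein of adipocyte lipid droplets (-0.91, adjusted p = 5.2e-09), while *Gpd1* rose by 1.66 (adjusted p = 3.2e-11). The mean over these markers ran from -1.20 to 0.00 in HF-DR, from -0.25 to 0.29 in HF-AL and from -0.01 to 0.40 in t=0. Of 12 endothelial markers, 1 rose and 7 fell, with *Cldn5* at -1.19 (adjusted p = 2.2e-09) and *Emcn* at 0.23 (adjusted p = 0.0199). With the slide as a block, 4 markers of each of these 2 lists fell, as did 4745 of the 16497 genes. When the tract arrays were left out, 2 adipocyte markers rose and 7 fell, and the adipocyte mean ran from -0.12 to 0.00 in HF-DR, from 0.02 to 0.29 in HF-AL and from -0.01 to 0.40 in t=0. Of the endothelial markers 1 rose and 6 fell without them, and the mean ran from -0.48 to -0.17 in HF-DR, from -0.28 to 0.16 in HF-AL and from -0.25 to 0.16 in t=0.

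All 10 macrophage markers fell, with *Lyz2* at -1.37 (adjusted p = 4.0e-11), and 8 of 10 preadipocyte and fibroblast markers fell, with *Col1a1* at -2.05 (adjusted p = 1.7e-18). The macrophage mean ran from -1.37 to -0.40 in HF-DR, from -0.19 to 0.35 in HF-AL and from -0.16 to 0.56 in t=0, and the fibroblast mean from -1.14 to -0.51, from 0.04 to 0.25 and from -0.08 to 0.37 in the same groups. With those arrays left out, 10 macrophage and 9 fibroblast markers fell. The HF-DR means then ran from -0.83 to -0.40 for macrophages and from -0.86 to -0.51 for fibroblasts, with HF-AL from -0.16 to 0.35 and from 0.04 to 0.25. Of 8 tract markers 3 rose, which ended at 1 without the tract arrays, and of 5 skeletal muscle markers 1 rose and 2 fell (1 and 3 without these arrays). The part of cell composition in these values was not tested.

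Over all 18 lists, 134 of 180 measured genes (74.4%) passed between HF-DR and HF-AL, where the background is 64.8%. Between HF-DR and t=0, 138 (76.7%) passed, where the background is 61.8%. The lists were chosen with earlier results of these data known, so nothing is read from these shares. Between HF-AL and t=0 none of the 180 passed in limma at an adjusted p under 0.05. An unadjusted p under 0.05 was found for 22 of them (12.2%), against 13.5% of all genes. The lists share no gene, and a list's count is a description of its genes beside the background shares.

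**Figure D5:**
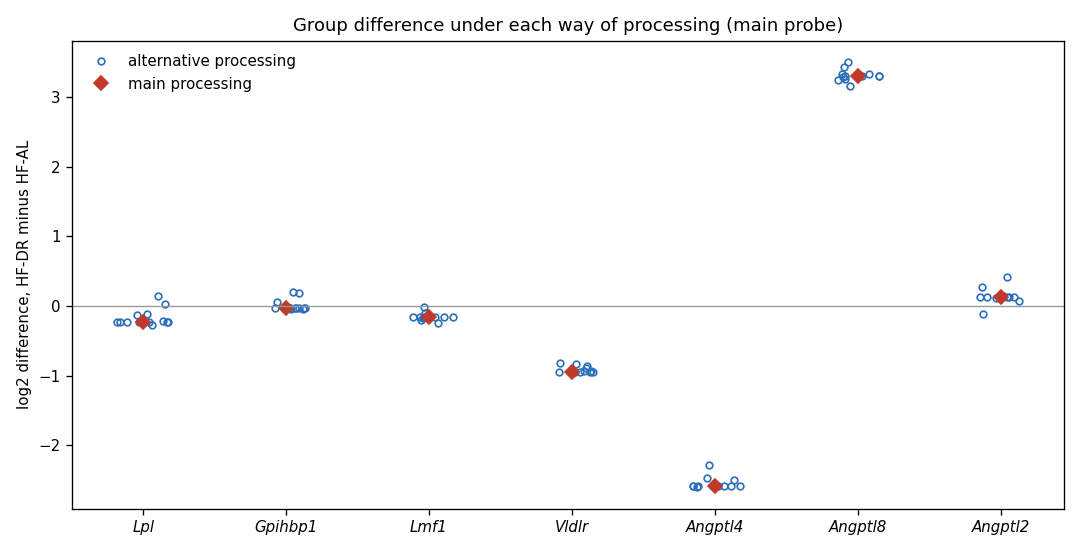
Log2 difference between HF-DR and HF-AL (vertical axis) for the main probe of each gene under the main processing (diamond) and 13 alternatives (circles). Angptl8 stays between 3.16 and 3.51, Angptl4 between -2.60 and -2.29 and Vldlr between -0.95 and -0.82, while Lpl, Gpihbp1 and Angptl2 lie on both sides of 0.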

How the data were processed

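The authors deposited scans of 36 two-colour arrays, whose spots were read by Agilent Feature Extraction (version 9.5.3.1, per the submitters' processing notes). Mean spot intensity and median local background intensity in both channels, linear and not normalized per the file headers, were used. The authors' processed intensity values and their deposited value table, on a log2 scale and made in a way not given in the sources used here, served as alternatives. Probe coordinates are on mm8 per the file headers. The members, lists and tests were chosen with earlier results of these data known.

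Background was corrected with normexp in limma 3.58.1 (R 4.3.3; offset 50), leaving out 84 specks on 12 arrays, spots with a net signal under -50 in either channel. Ratios were normalised by loess with 4 iterations, and spots marked as outliers were left out. A probe was kept if its Cy5 spot stood well above background in 9 or more mice of a group, and each gene was represented by its brightest probe, called its main probe. Groups were compared in 1 limma fit over all arrays with Benjamini-Hochberg adjustment over all genes, two-sided, and a gene called changed, risen or fallen at an adjusted p under 0.05. The fit was run on simulated data with few changed genes and no slide or tract effects. That run cannot show how the fit does where most genes pass, and nothing here rests on it. Correlations used 100000 permutations, and the 2 farthest mice were judged on the first gene named of each pair. The lists named up to 3 genes of smallest adjusted p and 1 going the other way. The tract arrays were chosen after their values were seen. A few genes within these rules are not reported here. Gene names came from RefSeq through accessions for 24375 of 41174 probes, from symbols for 6301, synonyms for 2386 and other accessions for 54, and 8058 kept the name in the file. Replicate numbers were not used to pair the mice in the main fit. Of 12 pairs, the deviations of same-numbered mice correlated above 0.1 in 9 pairs for HF-DR and HF-AL. For HF-AL and t=0 it was 2 pairs, and for HF-DR and t=0 it was 0. What same-numbered mice of HF-DR and HF-AL share was not tested. Each array is 1 mouse per the labels.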

Additional observations from a re-analysis of the deposited data

How the results depend on the processing

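Of 453 recomputed values of the 12 probes, 441 counted as unchanged. These kept their direction and call, moved by less than the spread between mice, or turned direction without being called. Such turns between HF-DR and HF-AL were *Lpl* at 0.14, against -0.23, *Gpihbp1* at 0.20, against -0.04, and *Angptl2* at -0.12, against 0.13. Alternatives that leave a ratio unchanged by design also count among the 441. Exceptions were these, and the cause was not tested. The second probe of *Angptl8* differed by 2.75 between HF-DR and HF-AL with the specks kept and by 3.88 with processed signals (4.10 against t=0), against 3.23. The third probe of *Angptl2* reached -1.08 against HF-AL and -1.10 against t=0 with processed signals, and the second 0.25 against HF-AL with the slide as a block. With the deposited value table *Lmf1* was at -0.01 and the second probe of *Lpl* turned to 0.0071, against -0.32. The second probe of *Angptl2* turned to 0.0342 against t=0 with the slide as a block, *Mt1* to 0.2757 with the deposited table, and the correlation of *Lpl* with *Gpihbp1* in HF-DR to -0.113 with the slide's mean removed. Of 9 correlations 3 passed by Pearson's r, and 0 without the 2 farthest mice, 0 with slide means removed and 0 without the tract arrays; by Spearman's rho 2 passed, and 0, 0 and 1 under the same alternatives. The number of genes changed between HF-AL and t=0 was 113, against 213 with processed signals, 71 with no filter on dim probes, 197 without the tract arrays and 305 in a fit over those 2 groups alone. For HF-DR against HF-AL it stayed between 8702 (slide as a block) and 11182 (processed signals), against 10683. With the replicate number as a block it was 10650 for HF-DR against HF-AL, 10214 for HF-DR against t=0 and 124 for HF-AL against t=0. In the first pair of groups, 2 of 12 mice correlated best with their own number, and the numbers were not used as pairs. Of 1296 counts over lists 1247 stayed within 1.5 times, and of 751 values of list genes 13 lost their call. Dim probes, such as those of *Angptl2*, *Angptl1*, *Apoc3*, *Lipg*, *Fgf21*, *Fabp5*, *Sorl1* and *Egln3*, are limited by their signal over background. A single dye orientation leaves dye effects of each probe unmeasured, although these cancel between groups.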
